A study of Mus musculus with 5 samples.

Results

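Endothelial cells around the mouse optic vesicle were taken from a single-cell RNA data set of the early eye region. Members were chosen by a rule on their unique molecular identifiers (UMIs, counts of captured RNA molecules). A barcode, the tag of 1 captured cell, was a member if it met 4 conditions. At most 10% of its UMIs came from mitochondrial genes, and Malat1, a nuclear RNA, reached at least 600 counts per 1000000 UMIs (CPM). It also had a UMI of at least 4 of the 8 endothelial genes Pecam1, Cdh5, Kdr, Tie1, Cldn5, Emcn, Esam and Flt1, and haemoglobin genes made up under 1% of its UMIs. The rule found 392 of 8194 barcodes.

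The embryos were wild-type C57BL/6J mice at 12, 16, 20, 24 and 26 somites, 1 embryo per stage, with no treatment named. The optic areas of both sides were cut out together with a fine needle and dissociated with trypsin, and about 2000 cells per embryo went into a droplet library. The 5 libraries share a single matrix and are told apart only by a barcode suffix, here libraries 1 to 5. No source used here ties a suffix to a stage, so the libraries carry no stage below and have no order. Each library is 1 embryo, so no test between stages was possible. Stage, embryo and dissection cannot be told apart in any difference between libraries. Needle dissection takes in whatever vessels lie close to the optic vesicle, so the labels do not say which vessels these cells came from.

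Endothelial cells line blood vessels. In the embryo the first of them arise from mesodermal angioblasts, under the ETS factor Etv2 and the growth factor Vegfa acting on its receptor Kdr, and join into a plexus that is then remodelled. Arterial identity depends on VEGF and Notch signals and is marked by genes such as Gja4, Dll4 and Hey1, while venous cells keep Nr2f2 and Aplnr. Around the early eye such a plexus supplies the growing optic vesicle and later gives rise to choroidal and hyaloid vessels.

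Endothelial cells made up 4.78% of all barcodes (exact Clopper-Pearson 95% interval 4.33% to 5.27%, counting error only). Libraries 1 to 5 held 59, 59, 126, 74 and 74 members, which were 4.51, 3.56, 6.31, 4.97 and 4.24% of their barcodes. The share was highest in library 3, at an interval of 5.29% to 7.47%, and lowest in library 2, at 2.72% to 4.57%. These 2 intervals did not overlap, and those of libraries 1, 4 and 5 overlapped each other. The number of rule genes per barcode fell into separate ranges. Of the barcodes that met the other 3 conditions, 5197 had none of the 8 genes and 286 had all 8, with only 17 at 3 genes and 8 at 4. The 8 genes together reached 95 CPM in the 17 barcodes just outside the limit and 904 CPM in the 8 just inside. The cut was made on these same genes, so their levels describe it and do not support it. Megakaryocyte-rich barcodes, described below, are among the 8 just inside. The barcodes just outside were deeper, with a median of 41856 UMIs against 23446, and 9 of them had at least 4 neuroepithelium markers against 0 inside. At least 4 mesenchyme markers were found in 10 of the 17 and 4 of the 8.

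**Figure D1:**
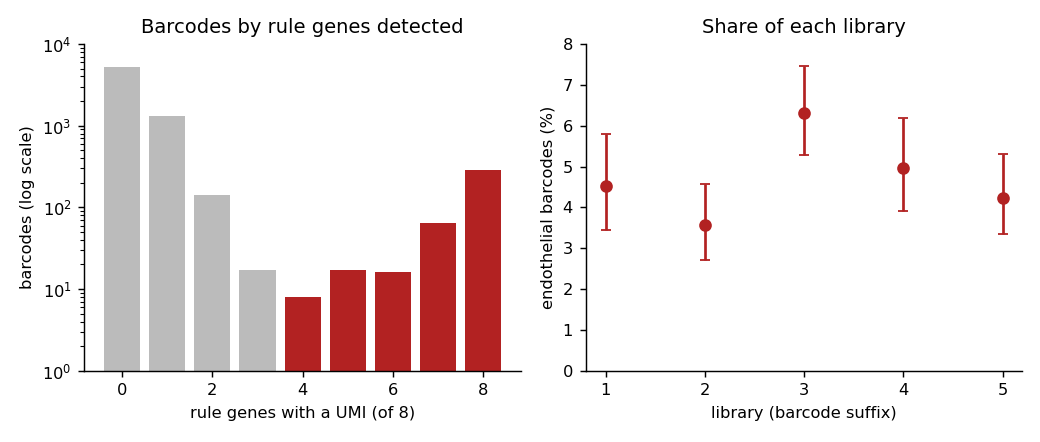
Left, number of barcodes (log scale) by how many of the 8 rule genes had a UMI, among barcodes that met the other conditions, with members in red. Right, members as a share of each library in percent with exact 95% intervals; barcodes gather at 0 to 1 and at 7 to 8 genes, and library 3 has the highest share at 6.31%.

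The label was held against markers that the rule did not use. Of 4 further endothelial markers, Egfl7, a secreted vessel protein, ranged over libraries from 573 to 827 CPM in members, and the transcription factors Sox7, Sox18 and Erg from 31.0 to 53.1, 25.5 to 254 and 38.6 to 66.2 CPM. In all other barcodes Egfl7 lay at 30.9 to 36.9 CPM and each of the other 3 at or below 1.02 CPM. Markers of other cell types gave a mixed picture. The 12 neuroepithelium markers summed to 14.5 to 76.5 CPM in members against 485 to 983 CPM in the rest, and the 12 mesenchyme markers to 152 to 207 against 789.8 to 1206 CPM. The 10 mural markers were at 46, 46.7, 35.3, 38.3 and 58.9 CPM in members of libraries 1 to 5 and 77.6, 47.7, 41.6, 52.2 and 56.9 CPM in the rest, and Rgs5, Cspg4, Myh11 and Vtn had no UMI in any member. The 12 myeloid markers were at 26.5, 17.9, 33.6, 71.7 and 27.3 CPM against 6.19, 10.1, 9.10, 37.0 and 104 CPM, higher in members of libraries 1 to 4 and lower in library 5, while Tyrobp, C1qa, Cx3cr1 and Ptprc had no UMI in any member. The 10 migratory neural crest markers summed to more in members, at 321, 392, 336, 342 and 518 CPM against 239, 170.3, 124, 129.6 and 166 CPM. By the size rule given below, only Ets1 and Mef2c, which are also endothelial factors, were higher. Sox9 and Tfap2b were lower, 5 were too low to be tested, and the list's median log2 ratio was -0.54. Foxd3 had no UMI in members. The 10 neuron markers were at 32.1, 37.1, 59.0, 78.5 and 27.3 CPM against 86.8, 87.1, 58.2, 68.6 and 40.2 CPM. The haemoglobin transcripts, which the rule limits, reached at most 0.315% of a member's UMIs.

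Single members also carried markers of other types. 4 members, 1 in library 3 and 3 in library 4, had UMIs of 11 or 12 of 12 megakaryocyte markers and 391 to 895 UMIs each of Pf4, a platelet chemokine. They had 4 or 5 of the rule genes, no UMI of Emcn or Cldn5 and at most 1 of Cdh5, and met the rule mainly through Kdr, Tie1, Esam and Pecam1. They are called megakaryocyte-rich barcodes below. They stay in the values below because the rule admits them, and results that rest on them are given without them. 9 members carried at least 4 neuroepithelium or surface ectoderm markers at a median of 44918 UMIs, against 28771 over all members. At least 4 mesenchyme markers were found in 91 of 392 members and in 3047 of 7802 other barcodes. For at least 4 erythroid markers the counts were 139 and 2972, and for at least 4 migratory neural crest markers 34 and 1291. The part of free RNA or of doublets in these counts was not tested. No doublet caller was run. Of 40 barcode sequences found under more than 1 suffix, 8 were carried by a member, and no 2 members shared a sequence.

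By median UMIs, members were deeper than the rest in libraries 2, 4 and 5 and shallower in libraries 1 and 3. Members of libraries 1 to 5 had a median of 29359, 33468, 28330, 28855 and 24394 UMIs and 5145, 5442, 4774, 4814 and 4829 genes. All other barcodes had 30936, 26526, 30854, 28562 and 20551 UMIs and 5096, 4750, 4786, 4650 and 4413 genes. The mitochondrial share was higher in members in all 5 libraries, with medians of 1.61, 2.32, 1.92, 2.47 and 3.62% against 1.38, 1.71, 1.33, 1.72 and 2.54%. Summed over a library's members the depth was 2053556 to 4132585 UMIs, so a single UMI was worth 0.242 to 0.487 CPM. A count of 0 allows up to 3 UMIs, or 0.726 to 1.46 CPM in the members of a library, by counting error only.

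The 8 rule genes are given as a description, since they chose the members. Cldn5 (claudin 5, the main tight junction protein of endothelium, chr16:18776847-18778262, GRCm38) was at 761, 736, 651, 649 and 560 CPM in the members of libraries 1 to 5 and at 1.08 to 2.66 CPM in the other barcodes. The sialomucin Emcn (chr3:137341067-137432185) was at 492, 490.2, 506, 503 and 389 CPM and the VEGF receptor Kdr at 359, 486, 353, 346 and 578 CPM. Kdr also had the highest level of the 8 outside, 2.74 to 17.2 CPM. The VEGF receptor Flt1 had 224, 261, 225, 189.7 and 364 CPM, the adherens junction cadherin Cdh5 239, 355, 224, 237 and 466 CPM and the adhesion molecule Esam 319, 268, 266, 248 and 159 CPM. Cdh5 and Flt1 were highest in library 5, where Esam was lowest. The surface protein Pecam1 (108 to 177 CPM) and the angiopoietin co-receptor Tie1 (59.5 to 97.3 CPM) were the least abundant of the 8. After each cell was thinned to 10000 UMIs, 96.6% of 386 members still had an Emcn UMI and 54.1% a Tie1 UMI. In 400 neuroepithelium-marker cells at the same depth the shares were 0.25% and 0.25%. Those cells were gated on at most 1 rule gene, so the gate set their low shares in advance. The shares before thinning were 99% and 81.6% of members.

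All genes were then compared between members and the other barcodes of the same library. A gene was called higher when its CPM in members was at least 2-fold that of the rest in each of the 5 libraries, after 5 CPM were added to both, and lower when it was at most 1/2. Of 5767 genes that averaged at least 20 CPM on either side, 547 (9.49%) were higher and 198 (3.43%) lower. The median log2 ratio over all of them was -0.05. The rule set this contrast, so these counts describe the members and are not a test. Ratios below are medians over the 5 libraries on this scale, and the added 5 CPM understate the ratio of genes that are near 0 outside. Beyond the rule genes the largest ratios belonged to Cd34, a sialomucin of blood and vessel cells, at 459, 623, 526, 475 and 609 CPM in members against 1.82 to 2.83 CPM outside. The pooled ratio of Cd34 without added CPM was 226 (exact Poisson interval 208 to 247), which covers counting error only. Among the 20 highest genes named here, Aplnr (391), Gimap6 (361), Icam2 (350) and Clec1b (270) stood above Cd34 on that pooled ratio. Genes beyond these 20 were not ranked by it. The podoplanin receptor Clec1b, usually known from platelets, was at 349.8, 353, 397, 379 and 303 CPM and the endothelial surface protein Ecscr at 429, 446, 375, 336 and 298 CPM. Clec1b did not rest on the 4 megakaryocyte-rich barcodes, since libraries 1, 2 and 5, which hold none of them, had it at 349.8, 353 and 303 CPM. The apelin receptor Aplnr, the vesicle protein Vamp5 and the adhesion molecule Icam2 followed, at ratios of 41.9, 41.1 and 38.8. Icam2 had 257, 210.4, 219, 169 and 81.3 CPM in members and was highest in library 1 and lowest in library 5. The calcium-binding protein S100a16 had 210.0, 344, 339, 332 and 557 CPM and was highest in library 5. The others of the 20 highest were Gng11, Plvap, Plxnd1, Smagp, Ramp2, Eng, Anxa2, Klf2, Ctla2a, Lmo2, Prkcdbp, Gngt2 and Gimap6, with ratios from 37.9 down to 24.8.

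The lowest ratios outside the haemoglobin genes, which the rule limits, included several genes of the neighbouring tissues. The imprinted Notch ligand homologue Dlk1 was at 8.68, 11.8, 10.9, 13.9 and 11.2 CPM in members and 70.0 to 404 CPM outside, 21.6-fold lower at the median. The eye field factor Pax6 was 13.8-fold lower and the retinoic acid binding proteins Crabp2 and Crabp1 12.9-fold and 10.6-fold. Mt2, Ptn, Lhx2, Sox2, Nr2f1 and Ldhb completed the 10 lowest, 12.6 to 8.13-fold lower. Pax6 was not at 0 in members (6.08, 1.75, 1.94, 5.98 and 19.5 CPM), and its level there was highest in library 5, which also held 4 of the 9 members with markers of neuroepithelium or surface ectoderm. The part of those barcodes, or of free RNA, in the residual Pax6 was not tested.

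Named gene lists were set beside that background of 9.49% higher and 3.43% lower. The background is a share of tested genes, while list counts below are over all measured genes of a list, with the number tested beside them. Genes pass the minimum more easily where members are high, so a count over tested genes alone is no support. List medians cover all measured genes. Of the junction and surface list, 18 of 22 genes (20 tested) were higher, 5 of them rule genes, and the list's median log2 ratio was 2.71. The scavenger-like receptor Cd93 was at 99.8, 174, 119.8, 119.6 and 250.3 CPM, and the C-type lectin Clec14a at 49.5, 53.7, 52.0, 53.4 and 59.4 CPM, with both below 1 CPM outside in every library. General junction genes differed less, Tjp1 by 2.70-fold and the catenin Ctnnd1 by 2.49-fold. Jam3, a junctional adhesion molecule, was the single lower gene of the list, at 15.5 to 27.8 CPM in members against 67.1 to 99.6 CPM outside. Jam2 and Ocln were too low to be tested.

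Receptors for vascular growth factors were higher in members, and their ligands were too low to be called. Of the VEGF and angiopoietin list, 10 of 20 genes (11 tested) were higher and 0 lower (median log2 ratio 2.16). Kdr, Flt1 and Tie1 are rule genes, and without them 7 of 17 were higher. The VEGF-C receptor Flt4 was at 115, 134, 87.4, 92.9 and 154 CPM, the angiopoietin receptor Tek at 42.5, 76.8, 56.1, 62.6 and 76.0 CPM, and the co-receptors Nrp1 and Nrp2 at 170.1, 164, 146, 133 and 208 and 85.1, 113, 86.9, 74.9 and 142 CPM. All 4 were higher in each library, Flt4 by 22.3-fold and Nrp2 by 5.95-fold. The adrenomedullin receptor parts Ramp2 and Calcrl reached ratios of 32.2 and 8.27. Among ligands, Vegfa was at 0.968 to 3.93 CPM in members and 3.58 to 7.85 CPM outside, Angpt1 at 0.436 to 1.20 CPM and Angpt2 at 2.42 to 3.99 CPM, all under the limit for a call. The apelin gene Apln, which activated vessel tips make, was at 33.8, 20.5, 16.2, 15.9 and 10.7 CPM in members and 0.797 to 1.95 CPM outside, with a mean just under the limit. Of a list of 20 ligands (4 tested) made by neighbouring cells, 0 were higher and 1, Bmp7, lower.

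Of the endothelial transcription factors, 18 of 30 (25 tested) were higher and 0 lower, at a median log2 ratio of 2.38. The flow-responsive factor Klf2 was at 126, 183, 227, 98.4 and 183 CPM and the LIM partner Lmo2 of blood and vessel programmes at 389, 367, 317, 295 and 336 CPM. The SOXF genes differed from each other in level across libraries, as Sox17 (78.9 to 118 CPM) and Sox7 (31.0 to 53.1 CPM) ranged less than Sox18 (25.5 to 254 CPM). The ETS factors Elk3, Ets1, Erg, Fli1 and Ets2 were 17.9, 9.88, 8.81, 8.39 and 8.37-fold higher. Hhex, Mef2c, Lyl1, Bcl6b, Epas1, Tal1, Foxo1 and Tcf4 were higher too, between 2.58 and 16.3-fold. Etv2 and Gata2 reached median ratios of 4.60 and 4.11 and were not called, because Etv2 was 1.69-fold and Gata2 1.57-fold higher in their lowest library. Nr2f2, which marks veins, lay at 53.4, 92.1, 53.0, 68.5 and 111 CPM in members and 65.6, 69.5, 60.6, 94.0 and 175 CPM in the rest, 1 of 5 libraries higher, and the periocular mesenchyme also expresses it.

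**Figure D2:**
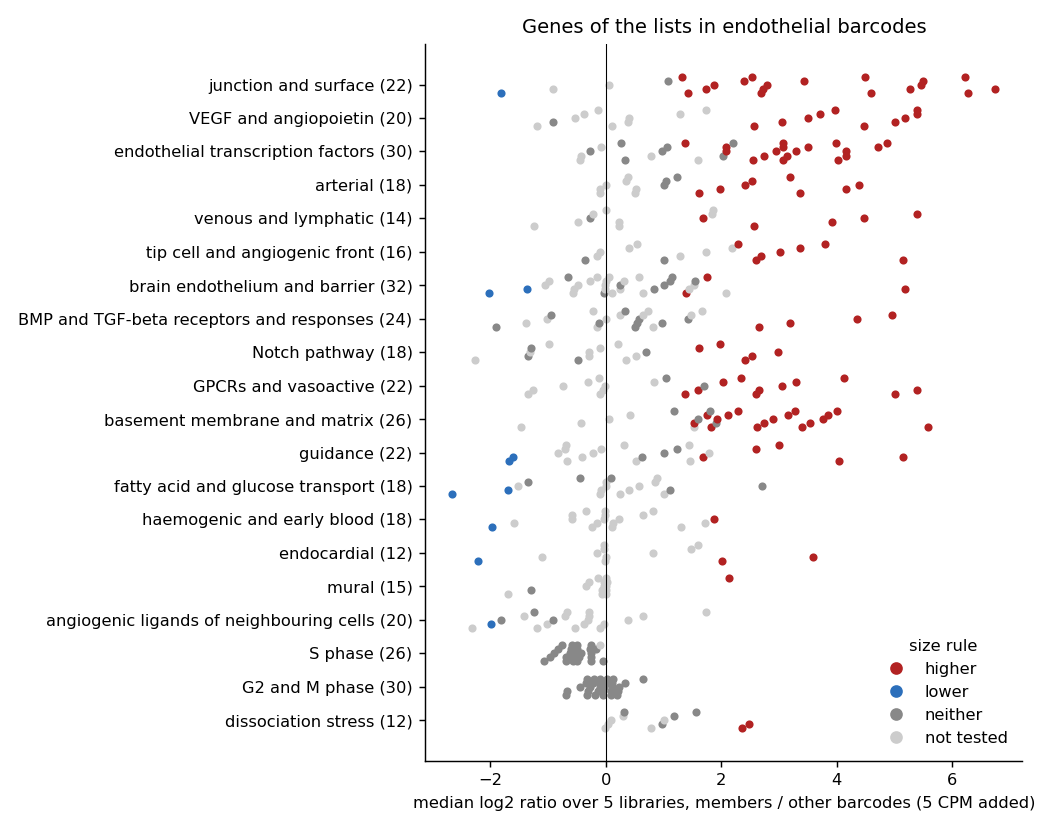
Each point is 1 gene of a list, placed at its median log2 ratio of CPM between members and other barcodes over 5 libraries (5 CPM added); colours give the call and numbers in brackets the genes measured. Junction genes, growth factor receptors, transcription factors and basement membrane genes reach furthest right, with Cldn5 at 6.75, while S phase and G2 and M phase genes sit near or below 0.

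Arterial and venous genes were both present. Of the arterial list, 8 of 18 genes (11 tested) were higher and 0 lower (median log2 ratio 1.14), led by the connexin Gja4 (chr4:127311421-127314039) at 100.2, 175, 113, 80.9 and 112 CPM against 0.392 to 0.787 CPM outside. Sox17, Igfbp3, the BMP9 receptor Acvrl1, Notch1, the Notch ligand Dll4, Notch4 and the Notch target Hey1 were the other 7. Dll4 was low, at 27.3, 24.0, 22.3, 16.7 and 15.6 CPM, but at 0 to 0.110 CPM outside. Efnb2 and Unc5b, at 27.8 to 57.0 and 31.7 to 58.9 CPM, did not reach 2-fold in every library. The later arterial connexin Gja5 (1.30 to 3.19 CPM), Hey2 (0.487 to 4.36 CPM) and Cxcr4 (0.399 to 2.17 CPM) were too low to test. Of the venous and lymphatic list, 5 of 14 genes (6 tested) were higher and 0 lower. The higher ones were Aplnr, Flt4, the scavenger receptor Stab1 (88.1, 103, 76.0, 66.6 and 90.1 CPM), Nrp2 and the ephrin receptor Ephb4 (52.1, 62.4, 43.3, 40.3 and 77.9 CPM). The lymphatic genes Lyve1 and Prox1 were too low to test. Lyve1 had 3 UMIs in all members, and Prox1 was at 0.242 to 2.43 CPM in members and 2.08 to 3.41 outside.

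The Notch list had 5 of 18 genes (9 tested) higher, with the Fringe enzyme Mfng (83.3, 103, 76.2, 88.1 and 117 CPM) ahead of Notch1, Dll4, Notch4 and Hey1. Hes1 was at 54.7, 52.8, 48.9, 70.1 and 86.7 CPM in members against 85.3, 142, 156, 172 and 264 CPM, below the rest in all 5 libraries but not 2-fold in each. Genes of BMP and TGF-beta signalling gave 4 higher of 24 (13 tested). They were the co-receptor Eng (191, 254, 203, 197 and 231 CPM), the ligand Tgfb1 (180.1, 181, 154, 175 and 142 CPM), Acvrl1 and Tgfbr2. The response gene Id1 was not called and lay at 295, 308, 196, 99.6 and 167 CPM in members and 167, 137, 92.6, 91.1 and 82.6 CPM in the rest.

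Among G protein-coupled receptors and vasoactive genes 11 of 22 (13 tested) were higher, including the adhesion receptor Adgrf5 (74.2, 111, 86.4, 81.7 and 148 CPM), the sphingosine receptor S1pr1 (48.6, 62.0, 61.7, 58.6 and 75.5 CPM) and the nitric oxide synthase Nos3 (29.1, 38.8, 45.2, 31.5 and 31.7 CPM). All 3 lay below 2 CPM outside. Among guidance genes 5 of 22 (10 tested) were higher, with the semaphorin receptor Plxnd1 at 162, 265, 186, 231 and 352 CPM, the ephrin Efna1 at 82.5, 104, 83.7, 94.1 and 127 CPM and Robo4 at 12.6, 25.8, 20.3, 27.9 and 36.5 CPM. Efnb1 and Ephb2 were lower, 3.20 and 3.06-fold.

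Basement membrane genes formed a broad block. Of 26 (21 tested), 17 were higher and 0 lower (median log2 ratio 2.02). The matrix protein Sparc was at 955, 826, 869, 909 and 623 CPM against 72.3, 69.0, 113, 131 and 178 CPM, and its ratio was smallest in library 5, at 3.43. The type IV collagen chains Col4a1 and Col4a2, which are made together, stood at 248, 405, 199, 202 and 441 and 161, 269, 269, 255 and 413 CPM. Perlecan (Hspg2) had 141, 228, 200.1, 178 and 242 CPM, and laminin chain Lama4 26.5, 44.1, 32.9, 33.5 and 49.2 CPM. Col15a1 had the largest ratio of the 4 collagens in the list, 14.4-fold, with its highest level in library 5 (153 CPM). Fibronectin (Fn1) was 3.76-fold higher at the median but 1.95-fold in its lowest library and so was not called.

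Most genes of the brain endothelial barrier were too low to be tested. Of the brain endothelium and barrier list 3 of 32 genes (13 tested) were higher and 2 lower. The most abundant higher gene was Plvap (527, 569, 520.0, 464 and 411 CPM), the diaphragm protein of fenestrated and immature vessels, which mature barrier endothelium lacks. The WNT7 co-receptor Adgra2 (24.3, 34.9, 32.7, 28.7 and 46.3 CPM) and Lrp5 (21.7, 30.1, 17.2, 17.5 and 31.7 CPM) were the other 2. The glucose transporter Slc2a1 was at 376, 284, 291, 266 and 216 CPM in members and 275, 129, 129, 95.1 and 106 CPM outside, 2.16-fold higher at the median and 1.36-fold in its lowest library. The lipid transporter Mfsd2a, the organic anion transporter Slco1c1 and the efflux pump Abcb1a had 4, 5 and 8 UMIs in all members together. The WNT target Axin2 lay at 1.30, 2.18, 2.90, 1.59 and 4.38 CPM in members and 15.6, 9.17, 6.85, 7.30 and 13.6 CPM outside. The transferrin receptor Tfrc and the tricellular junction receptor Lsr, known from mature barrier vessels, were 2.59 and 4.06-fold lower. Of the tip cell list 7 of 16 (9 tested) were higher, with Kcne3 at 128, 56.3, 67.5, 55.0 and 111 CPM and Pdgfb, which recruits mural cells, at 20.4, 38.0, 38.0, 27.1 and 55.0 CPM. Esm1 was at 17.8, 21.8, 26.9, 14.7 and 10.7 CPM and at most 0.0483 CPM outside, with a mean under the limit for a call. Of the mural list, the single higher gene was the potassium channel subunit Abcc9 (12.2, 27.9, 13.8, 17.9 and 44.8 CPM). Pdgfrb, the defining mural receptor, was at 0.797 to 2.43 CPM in members and 12.7 to 22.2 CPM outside.

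Most genes of the blood and endocardial lists were too low to be tested. Of the haemogenic and early blood list 1 of 18 genes (2 tested) were higher and 1 lower, namely Cbfa2t3 and Meis1. Runx1, which marks haemogenic endothelium, had 13 UMIs in all members. Of the endocardial list 2 of 12 genes (3 tested) were higher and 1 lower. The higher ones were Npr3 and Hapln1, and the lower one the cadherin Cdh11. Hapln1, a hyaluronan link protein, was at 474, 385, 258, 211 and 274 CPM against 16.5 to 24.5 CPM. Fatty acid and glucose genes gave 0 higher and 2 lower of 18 (7 tested). The fatty acid binding protein Fabp5 was 6.30-fold lower (187, 117, 132, 99.6 and 77.9 CPM) and the glucose transporter Slc2a3 3.25-fold lower. Against mesenchyme-marker barcodes alone the direction for Slc2a3 reversed (log2 ratio 0.32). No S phase or G2 and M phase gene was called, of 26 and 30. Their median log2 ratios were -0.52 and -0.07. Of 12 dissociation stress genes, Atf3 and Junb were higher, by 5.59 and 5.11-fold, while the mean CPM of Fos and Egr1 was under the limit on both sides. The part of the trypsin step in them was not tested.

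The 250 bases before the start site are shown for 2 rule genes, Emcn and Tie1, and for 2 genes that split the members below, Gja4 and Etv2. Those of Cldn5, Kdr and Dll4 were also searched and are not shown. All of these stretches come from RefSeq (GRCm38.p6) and run 5′ to 3′ on the gene's strand. 405 of the 547 higher genes matched that table by symbol. Capitals mark matches, on either strand, to the letters AGGAAG (a core that ETS factors bind), AACAAT (SOX factors), AGATAA (bound by Gata2 and its relatives) and GTGGGAA (RBPJ, the DNA-binding partner of Notch). These motifs do not share bases in the stretches shown.
Emcn (chr3:137340828-137341077, plus strand): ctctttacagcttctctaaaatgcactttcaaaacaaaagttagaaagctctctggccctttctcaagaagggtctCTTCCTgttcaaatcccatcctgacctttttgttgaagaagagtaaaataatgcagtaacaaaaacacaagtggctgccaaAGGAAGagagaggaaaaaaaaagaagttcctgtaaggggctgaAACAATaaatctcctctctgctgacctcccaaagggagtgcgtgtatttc
Tie1 (chr4:118489850-118490099, minus strand): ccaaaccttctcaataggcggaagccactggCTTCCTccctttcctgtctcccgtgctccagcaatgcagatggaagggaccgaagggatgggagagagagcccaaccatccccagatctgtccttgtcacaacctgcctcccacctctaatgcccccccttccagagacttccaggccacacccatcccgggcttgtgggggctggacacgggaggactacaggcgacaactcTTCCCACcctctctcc
Gja4 (chr4:127314040-127314289, minus strand): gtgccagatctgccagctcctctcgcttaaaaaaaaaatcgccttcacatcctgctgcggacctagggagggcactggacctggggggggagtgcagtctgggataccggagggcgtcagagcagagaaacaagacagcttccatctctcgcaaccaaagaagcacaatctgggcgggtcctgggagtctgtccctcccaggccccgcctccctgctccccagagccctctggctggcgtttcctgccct
Etv2 (chr7:30635853-30636102, minus strand): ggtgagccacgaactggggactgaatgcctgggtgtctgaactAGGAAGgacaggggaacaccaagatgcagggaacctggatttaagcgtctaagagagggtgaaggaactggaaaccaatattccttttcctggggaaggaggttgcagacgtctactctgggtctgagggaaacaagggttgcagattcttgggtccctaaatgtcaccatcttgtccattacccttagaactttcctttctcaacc

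Emcn had 2 matches to AGGAAG, starting 174 and 93 bases before the start site, and 1 to AACAAT at 50 bases. Tie1 had 1 match to AGGAAG at 219 bases and 1 to GTGGGAA at 16 bases, both read on the opposite strand. Etv2 had 1 match to AGGAAG at 207 bases, and none of the letters occurred in the Gja4 stretch. AGGAAG was present in 35.3% of 556 promoters of higher genes, 27.4% of 5704 promoters of all tested genes and 29.5% of all 32851 promoters. The shares for AACAAT were 6.12%, 5.22% and 9.42%. AGATAA gave 5.76%, 5.33% and 9.99%, and GTGGGAA 5.22%, 4.66% and 5.42%. Such matches are letters in a window and show no binding.

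The other barcodes mix tissues, so members were also set against 2295 mesenchyme-marker and 3608 neuroepithelium-marker barcodes, each with at least 4 markers of its class and at most 1 rule gene. Against mesenchyme 479 genes (8.27% of 5794) were higher and 161 (2.78%) lower. Against neuroepithelium 609 (10.4% of 5857) were higher and 254 (4.34%) lower. The members' values are shared by these comparisons. 425 genes were higher than both classes. The gates fix the rule genes among them, and beyond these Cd34 and Clec1b led. 73 were lower than both. The leading ones were Crabp2, with median CPM over libraries of 33.1 CPM in members, 366 in mesenchyme-marker and 636 in neuroepithelium-marker barcodes, then Dlk1, the orphan receptor gene Nr2f1, Spsb4 and the hedgehog co-receptor Gas1.

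Other genes were called against a single class, which does not show that they were alike in the other. 183 genes were higher than in neuroepithelium and not called against mesenchyme. Calponin 2 (Cnn2) had 436 CPM in members, 389 in mesenchyme-marker and 20.4 in neuroepithelium-marker barcodes, and the factor Ebf1 80.5 CPM in members, 57.5 in mesenchyme-marker and 3.29 in neuroepithelium-marker barcodes. The growth factor Igf1 was in the same set, with 78.1 CPM in members, 22.7 in mesenchyme-marker and 0.999 in neuroepithelium-marker barcodes, as were Limch1, with 122 CPM in members, 28.7 in mesenchyme-marker and 2.90 in neuroepithelium-marker barcodes, and Dlc1. 54 genes were higher than in mesenchyme and not called against neuroepithelium. They included the G protein regulator Rgs2 with 134 CPM in members, 15 in mesenchyme-marker and 37.6 in neuroepithelium-marker barcodes, Slc2a1 with 284 CPM in members, 51.4 in mesenchyme-marker and 161 in neuroepithelium-marker barcodes, and the Notch-induced gene Nrarp with 31.4 CPM in members, 2.38 in mesenchyme-marker and 31.3 in neuroepithelium-marker barcodes. For the basement membrane list, 17 of 26 genes were higher than in mesenchyme and 21 than in neuroepithelium. For the transcription factor list the counts were 17 and 20 of 30.

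**Figure D3:**
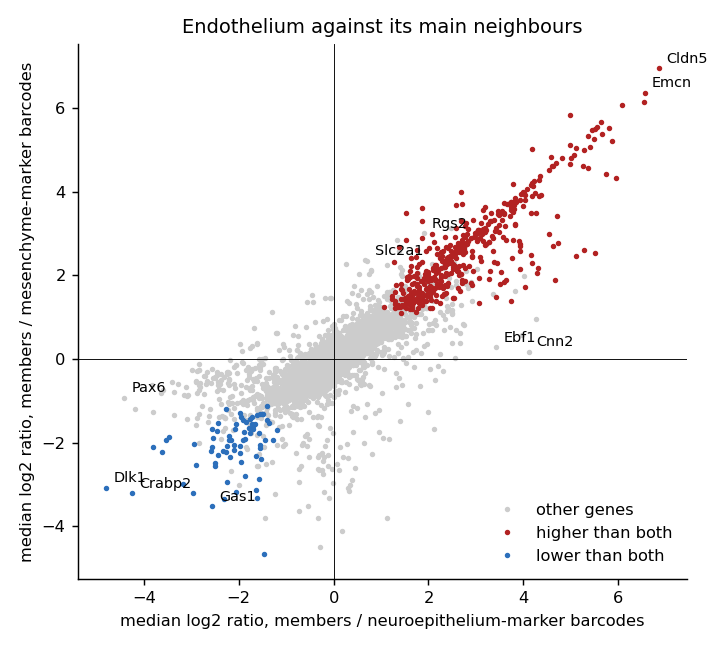
Each point is a gene, placed by its median log2 ratio over 5 libraries (5 CPM added) of members to neuroepithelium-marker barcodes (horizontal) and to mesenchyme-marker barcodes (vertical). 425 genes higher than both are red and 73 lower than both blue; Cnn2 and Ebf1 lie near 0 against mesenchyme only, and Slc2a1 nearer 0 against neuroepithelium.

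Members of the 5 libraries differed in few genes beyond the size set for a call. A gene was called when its highest and lowest library differed at least 4-fold (5 CPM added) and the exact 95% Poisson interval of the ratio lay above 2, which covers counting error and not differences between embryos. That held for 23 of 5151 genes (0.447%). For 15 of them the other barcodes of the same 2 libraries differed at least 2-fold in the same direction, and for 8 they did not, with 5 CPM added here too. Leaving out library 5 left 12 of the 23 called, the fewest of any library left out. Xist, the RNA of the silenced X chromosome, was among the shared ones, at 518, 0, 0, 0 and 836 CPM in members and 603, 0.0219, 0, 0 and 908 CPM in the rest. The Y-linked Ddx3y had the reverse pattern, at 0, 24.4, 15.5, 20.7 and 0 CPM in members. The histone genes Hist1h2ap, Hist1h1e, Hist1h1b and Hist1h2ae and the genes Pgk1 and Slc16a3 were among those that moved on both sides. Hist1h2ap, for example, was at 102, 68.1, 1052, 290.1 and 209 CPM in members and 122, 96.3, 1465, 388 and 281 CPM outside.

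The transcription factors Sox18 and Tcf15 were among those 8. Sox18, a SOXF factor of vessel and lymphatic development (chr2:181669836-181671640, minus strand), was at 254, 196, 26.1, 25.5 and 77.9 CPM in members of libraries 1 to 5. Libraries 1 and 2 were high, 5 was between, and 3 and 4 were low, while the other barcodes had 1.02, 0.614, 0.0872, 0.142 and 0.217 CPM. The outside values also had their highest level in library 1 and low ones in 3 and 4, and were under 2-fold apart only because 5 CPM were added to values near 0. Its ratio of library 1 to library 4 had an interval of 7.69 to 13.1, and after thinning 89.7%, 79.7%, 24.6%, 20.3% and 43.5% of members had a UMI. The related Sox17 and Sox7 did not follow, at 118, 104, 78.9, 86.9 and 84.2 and 37.8, 45.8, 31.0, 34.3 and 53.1 CPM. Tcf15 (chr2:152143561-152149097), a factor known from somites and from heart endothelium, was at 4.34, 31.0, 36.3, 41.0 and 138 CPM in members and 3.20, 2.17, 2.27, 4.56 and 5.31 CPM outside. Library 5 was highest, and library 1 was near the level outside. The interval of library 5 to library 1 was 17.1 to 67.2, and 6.90% and 56.5% of thinned members had a UMI. Without library 1 Tcf15 was not called.

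Etv2 (chr7:30633616-30635852, minus strand) was at 120.2, 44.1, 38.2, 11.2 and 4.38 CPM in members. Library 1 was far above the rest and library 5 lowest, with an interval of 14.2 to 60.6 for their ratio. The other barcodes had 8.02, 5.0, 4.40, 1.14 and 0.556 CPM, low but in the same order, so Etv2 counts among the genes that moved on both sides. The lipid carrier Apoe was at 740.3, 461, 485, 298 and 75.0 CPM in members and 69.2, 42.3, 70.3, 109.9 and 219 CPM outside. In members library 1 was highest and library 5 lowest, while outside library 5 was highest, so members exceeded the rest in libraries 1 to 4 and not in library 5. The membrane protein Itm2a had 183, 124, 122, 118 and 39.9 CPM against 56.9, 36.4, 38.5, 48.7 and 60.8 CPM, with library 5 lowest in members. The stretch-gated channel Piezo2 had 11.3, 27.9, 16.9, 33.1 and 60.4 CPM, highest in library 5, and 0.936 to 2.58 CPM outside. The glutathione transferase Gsta4 had 36.5, 27.9, 22.5, 19.5 and 4.87 CPM, lowest in library 5. The gene 8430408G22Rik had 8.68, 65.9, 50.6, 36.3 and 13.1 CPM, lowest in libraries 1 and 5. Outside it was at 0, 0.0877, 0.160, 0.0407 and 0.0242 CPM, also lowest in libraries 1 and 5. With 5 CPM added, values this near 0 could not differ 2-fold. Apoe, Itm2a, Piezo2 and Gsta4 were not called without library 5, and 8430408G22Rik, Itm2a, Piezo2 and Gsta4 not without library 1.

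Pf4 was also called, at 1.30, 0.873, 95.8, 749 and 0.487 CPM. 2269 of its 2282 UMIs came from the 5 members with at least 4 megakaryocyte markers, and without them it stood at 1.30, 0.457, 1.22, 1.24 and 0.487 CPM. Leaving out those barcodes removed Pf4 and Hbb-y, whose range then was 3.99-fold, from the 23 and kept the other 21.

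**Figure D4:**
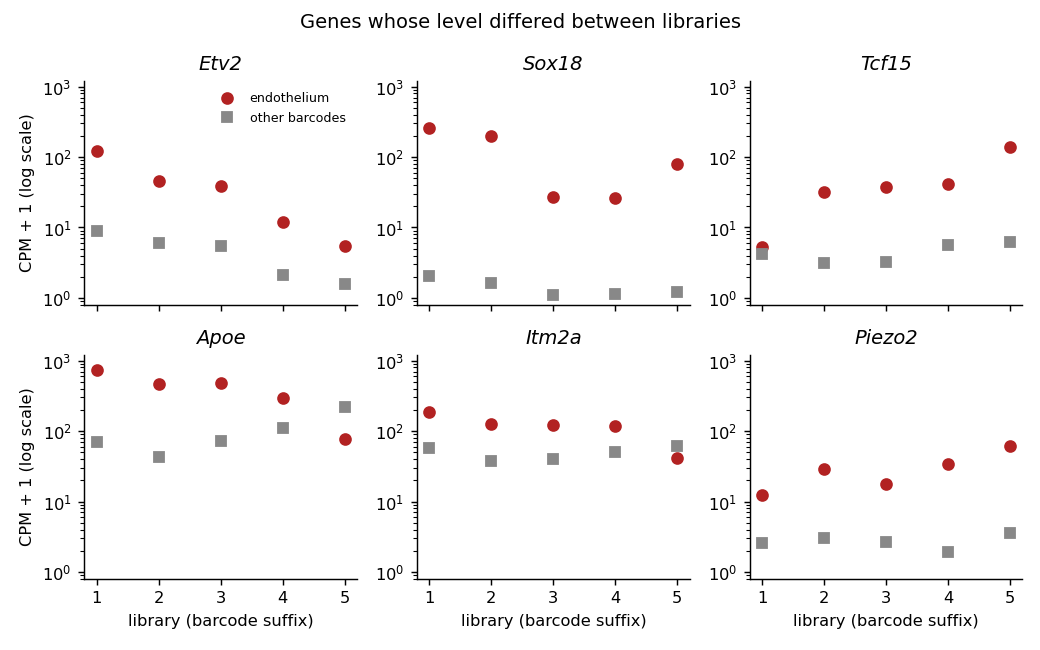
CPM plus 1 (log scale) of 6 genes in members (red circles) and all other barcodes (grey squares) by library; suffix numbers have no stage order. Sox18, Etv2 and Tcf15 differ between libraries in members from 25.5 to 254, 4.38 to 120.2 and 4.34 to 138 CPM, and Apoe in library 5 is below the other barcodes.

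Members also differed from each other within libraries. Each was thinned to 10000 UMIs, which left out 6 shallower ones, and the variance over the mean of each gene was taken within libraries. This value is 1 for counting noise alone. Its median over 5107 genes was 1.07, and 149 genes reached 2. Pf4 was highest at 194, from the megakaryocyte-rich barcodes, and fell under the minimum mean without them. Actb (44.3), Tmsb4x (18.6), Malat1 (16.3), Cdkn1c (11.4), Crabp1 (10.4), Stmn2 (10.1), Gm42418 (8.95), Gja4 (8.47), Sat1 (7.59), H19 (6.85) and Tmsb10 (6.65) followed. Crabp1 is a mesenchyme and neural crest marker here and was found in 98 thinned members. Gja4 and the cell cycle inhibitor Cdkn1c were found in 99 and 248 of 386 members, with up to 24 and 45 UMIs in a cell.

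Gja4 was followed from cell to cell after its unevenness was seen. Over 386 members and 7127 genes, with each library's mean taken off, the median size of the correlation of log UMIs with Gja4 was 0.06. These cells share libraries and a fixed depth, and the values are descriptive. Hey1, a Notch target, stood at 0.70 (0.66 to 0.76 within single libraries), Cdkn1c at 0.68 (0.63 to 0.74) and the netrin receptor Unc5b at 0.64 (0.56 to 0.71). Other genes among the 15 closest were Sat1 (0.65), S100a11 (0.63), Dll4 (0.59), the factor Mecom (0.57), Tmem100 (0.57), Efna1 (0.56) and Vegfc (0.52). At the other end were the chaperonin Hspe1 (-0.62), the nucleolar genes Npm1 (-0.57) and Ncl (-0.56), Mif (-0.57) and Odc1 (-0.55). The venous genes Aplnr (-0.39), Nrp2 (-0.33) and Nr2f2 (-0.32) were negative, and each of the 3 was negative in every library. Ephb4 was near 0 (0.03).

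The same pattern in levels is given for members split by thinned Gja4 UMIs, a range and not a cell type, without the 5 members with at least 4 megakaryocyte markers. 284 members had 0, 33 had 1 or 2, and 64 had 3 or more. The last were 7, 12, 26, 10 and 9 in libraries 1 to 5, so all 5 libraries held some. From none to 3 or more Gja4 UMIs, Hey1 went from 10.6 to 217 CPM, Dll4 from 6.69 to 103 and Cdkn1c from 104 to 1081. Efnb2, uncalled in the whole group, was at 21.1 and 109 CPM, and the late arterial connexin Gja5 at 0.352 and 18.8 CPM. Of the venous and lymphatic list, Aplnr was lower at 279 and 82.8 CPM and Nr2f2 at 88.7 and 9.38 CPM. Nrp2 (133 and 40.6 CPM), Flt4 (109 and 68.8 CPM) and Stab1 (101 and 68.8 CPM) were lower too. Ephb4 was not, at 51.8 and 56.2 CPM, nor was Vwf, a clotting protein of platelets and endothelium, at 1.06 and 71.9 CPM. The middle range lay between for Hey1, Dll4, Cdkn1c, Efnb2, Aplnr and Nr2f2. Library by library, Hey1 was at 6.52, 18.6, 11.1, 5.45 and 12 CPM without Gja4. With 3 or more Gja4 UMIs it was at 300, 233, 188, 210 and 222 CPM. Nr2f2 was at 71.7, 97.7, 61.1, 70.9 and 166 CPM without Gja4 and 0, 16.7, 3.85, 20 and 11.1 CPM with 3 or more. Hey1 had the highest correlation with Gja4 in these same cells and Nr2f2 a negative one, so these values are no separate support. The rule genes differed less, with Kdr at 381 and 531 CPM, Pecam1 at 114 and 239 CPM, and Cldn5 lower in the Gja4-rich members (756 and 481 CPM).

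Summed cell cycle lists were lower in members with 3 or more Gja4 UMIs than in those with none. The S phase list summed to 3011, 2214, 2102, 1966 and 2212 CPM in members without Gja4 and 2486, 1725, 1488, 1440 and 1278 CPM in those with 3 or more UMIs, lower in 5 of 5 libraries. The G2 and M phase list summed to 4500, 3839.5, 3436, 3293 and 3036 CPM and 3557, 2392, 3050, 1670 and 2200 CPM, again lower in each library. The middle range was not between for G2 and M phase, at 3691 CPM against 3571 CPM without Gja4 over all libraries, nor for Mki67, a proliferation marker, at 118, 107 and 48.4 CPM with 1 to 2, 0 and 3 or more UMIs. Of the genes chosen for their negative correlation, Npm1 was at 3194 and 1538 CPM and Ncl at 1812 and 727 CPM. The Gja4-rich members were shallower before thinning, at a median of 24130 UMIs against 31044. The part of cell size or depth in these levels was not tested.

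**Figure D5:**
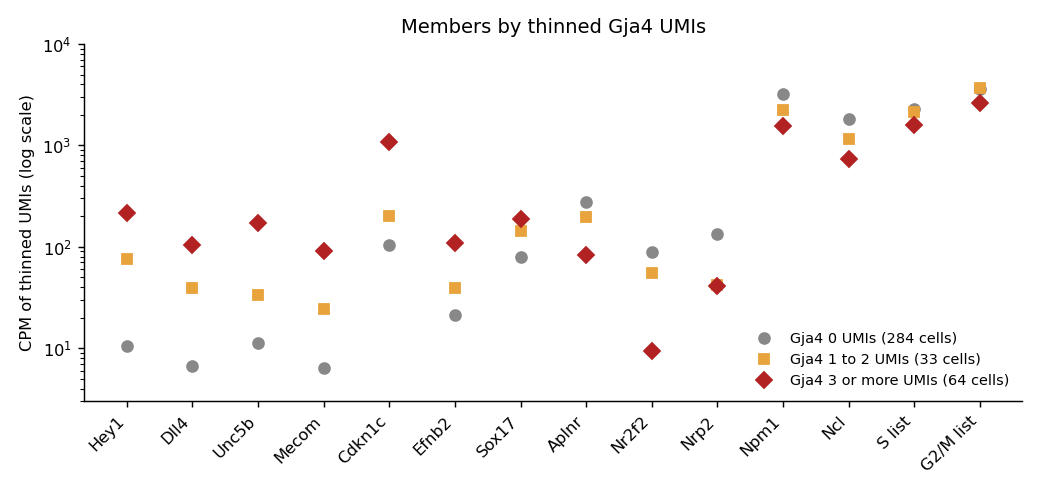
CPM of thinned UMIs (log scale) in members with 0, 1 to 2 and 3 or more Gja4 UMIs, for single genes and for the summed S phase and G2 and M phase lists. Hey1, Dll4, Unc5b, Mecom, Cdkn1c, Efnb2 and Sox17 increase with Gja4 (Cdkn1c from 104 to 1081 CPM), while Aplnr, Nr2f2, Npm1 and Ncl decrease.

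34 members had 2 or more thinned Etv2 UMIs, 15, 6, 11, 2 and 0 of them in libraries 1 to 5, and none of these had 3 or more Gja4 UMIs. Over all split members, 284 had 0, 33 had 1 or 2 and 64 had 3 or more Gja4 UMIs, with 7 of the 64 in library 1. Whether the 2 exclude each other was not tested. At lower counts both occurred, as members with 1 Etv2 UMI had Gja4 at 29.5 CPM. The genes nearest to Etv2 were Gadd45g (0.40), Colec12 (0.37), Ptn (0.37), Tgfbi (0.35) and the blood and vessel factor Tal1 (0.33), and the farthest Tmsb4x (-0.52), Sh3bgrl3 (-0.46), Sparc (-0.45) and Vim (-0.44). For Gadd45g (-0.07 to 0.54), Ptn (-0.08 to 0.58) and Sparc (-0.67 to 0.04) the sign differed between libraries. In libraries 1, 2 and 3, which held 5 or more Etv2-rich members each, Tal1 was at 207, 83.3 and 63.6 CPM in them and 34.4, 34.1 and 21.8 CPM in members without Etv2. The junction gene Cdh5 was at 113, 183 and 127 CPM against 338, 395 and 253 CPM, and Sparc at 460, 467 and 491 CPM against 1184, 990.2 and 1031 CPM. Tal1 was higher and Cdh5 and Sparc lower in the Etv2-rich members of these 3 libraries. All 3 genes lie near the ends of the correlations with Etv2 in the same cells. That largely fixes the direction of this split, so it is no separate support. Over all libraries Pecam1 and Tie1 were lower as well (159 to 47.1 and 95.4 to 20.6 CPM), while Kdr (436 and 353 CPM) and Cldn5 (668 and 782 CPM) differed less. The mesenchyme markers Col3a1 and Prrx2 were at 35.3 and 55.9 CPM in the Etv2-rich members and 7.26 and 11.9 CPM in those without. Their part in the pattern was not tested. The values of Pecam1, Tie1, Kdr, Cldn5, Col3a1 and Prrx2 pool the libraries. Members without Etv2 were 32, 41, 101, 63 and 66 in libraries 1 to 5, a different mix from the Etv2-rich ones. The part of library differences in these pooled values was not tested.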

How the data were processed

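The deposited matrix holds raw UMI counts of 27998 genes in 8194 barcodes, which the authors made with Cell Ranger on mm10 (GRCm38), per the submitters' processing notes; its version is not given in the sources used here. Libraries come from Chromium 3′ kits, per the labels' protocols. The total was 257637891 UMIs, 13290772 of them in members. No library was tied to a sample label, so values are given library by library, with no SD and no p-value.

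Members and gene lists were chosen with earlier results of these data known. UMIs were summed over the members and over the other barcodes of each library and divided by their totals (Python 3.11.15, numpy 2.4.6, scipy 1.17.1). The size rule needs 2-fold in every library with at least 20 members. Deep cells weigh more in sums. The exact intervals cover counting error at 95%. Neighbour classes were gated on at least 4 markers and more than of any other list. For the spread between cells, members were thinned to 10000 UMIs with a fixed seed; genes with a mean of at least 0.2 thinned UMIs entered the variance over the mean and of at least 0.1 the correlations. Named genes were the rule genes, the 20 highest and 10 lowest calls, the leading genes of each list, those of widest range or most uneven, and a fixed set of vessel genes; the genes found by following Gja4 and Etv2 and those named for a single class or library pattern were chosen after their values were seen. All 463 list genes were found, 2 of them by gene ID. Coordinates of genes are from GENCODE M21. The scripts were tested on simulated data. Some items are not reported here. Alternatives are in the closing section. Genes that share reads with close copies, such as the haemoglobin and histone genes, are uncertain.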

Additional observations from a re-analysis of the deposited data

How the results depend on the processing

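Membership moved little, from 347 barcodes without those of at least 2 times their library's median UMIs to 409 with 3 of 8 rule genes. Leaving out each library in turn gave 552 to 580 higher and 198 to 231 lower genes, and 12 to 20 genes that ranged between libraries, the lowest without library 5. A minimum of 50 CPM gave 314 higher and 72 lower genes, and a 4-fold limit 228 and 43. Pooling UMIs over libraries gave 705 higher and 312 lower genes, as a gene then need not differ in every library. A minimum of 10 CPM gave 37 and a 3-fold range 72 genes that ranged between libraries. Thinning to 5000 UMIs gave 46 uneven genes in place of 149, with fewer genes above the minimum mean. The variance over the mean was also smaller at that depth, while the limit of 2 stayed the same. For Gja4 it was 4.67 in place of 8.47 and for Cdkn1c 6.22 in place of 11.4. Without the members rich in megakaryocyte markers, an alternative added after seeing the data, the counts were 550 higher, 206 lower and 132 uneven genes. Of 199 named genes, 168 kept their call against mesenchyme-marker barcodes alone and 176 against neuroepithelium-marker barcodes, and 1, Slc2a3, reversed (log2 ratio 0.32 against mesenchyme). Members and other barcodes were compared within each library, and this contrast was given no test since the rule set it. With 1 embryo per stage, no test between stages was possible. The floor of 3 UMIs was 0.726 to 1.46 CPM for the members of a library and 0.226 CPM over all members.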

Other observations

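The members rich in megakaryocyte genes can be described further as single barcodes. Their depth was 33823, 43018, 25371 and 21079 UMIs, and the integrin Itga2b had 17, 18, 20 and 12 UMIs. The fifth member with at least 4 such markers, in library 2, had 102213 UMIs, all 8 rule genes and a single Pf4 UMI. Across members without these 5, the tubulin-binding gene Stmn2, better known from neurons, was at 253 CPM in the Gja4-rich and 9.15 CPM in the Gja4-free range, and no member had 4 or more of the 10 neuron markers. Gene 8430408G22Rik followed the same split, at 202 and 5.99 CPM.

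The Malat1 condition removed 11 barcodes that met every other condition, and the haemoglobin condition 3. Haemoglobin transcripts remained in members at a share of their level outside that differed between genes and libraries. For Hbb-y it was 1.73, 2.11, 2.34, 1.47 and 2.79% in libraries 1 to 5, and for Hbb-bt 1.27, 1.87, 8.65, 5.22 and 3.57%.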
